A study of Mus musculus with 16 samples.

Results

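The livers of refed mice that had eaten a diet low in isoleucine were compared with those of refed mice on a control amino acid diet. The libraries were chosen by their labels for diet and feeding state, which gave 4 low isoleucine refed and 4 control refed libraries, 8 of the 16 in the count table. The comparison ran over 14920 genes of the 51912 in that table, those with enough counts to be tested. All mice were males aged 13 weeks, kept at about 22 °C, that had been given one of the diets for 3 weeks from 10 weeks of age. An overnight fast of 16 h is recorded for all 16 libraries, those of the refed mice included. The other 8 libraries came from mice harvested after that fast without refeeding, 4 on each diet. The labels name no strain and no transgene, and the length of the refeeding is not given in the sources used here. Every control refed library carries the number 7 in its label and every low isoleucine refed library the number 9, so whatever those numbers stand for cannot be told apart from the diet. Libraries are numbered 1 to 4 within each group. The labels do not say that each library is a separate mouse, so the p-values measure the spread between these libraries, which may in part be technical.

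Isoleucine is an essential branched-chain amino acid, which means that it must come from food. When an essential amino acid runs short, uncharged tRNA activates the kinase GCN2, and translation of the transcription factor ATF4 goes up. ATF4 then turns on genes for amino acid uptake and synthesis, for feedback on the response and, in liver, for the hormone FGF21. Refeeding after a fast brings insulin and amino acids to the liver together, and the liver answers with lipid synthesis and less glucose output. Several other programmes of mouse liver, among them the secretion of major urinary proteins by males, follow the pattern of growth hormone release.

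The control refed libraries held 24368656 to 33432158 counts each and the low isoleucine refed libraries 30405595 to 33822517. Levels below are TMM-normalised CPM, counts scaled to each library's size and composition, given for libraries 1 to 4 in order or as mean ± SD with n = 4 per group. Library 4 of the control refed group was unlike the other refed libraries. It had a TMM scaling factor of 1.21 against 0.932 to 1.07 in the other 7, and on the first principal component of the refed libraries (35.8% of the variance) it lay at 46.0 against -28.3 to 17.5. In that library 10 of 10 sinusoidal endothelial markers, 11 of 13 Kupffer cell and macrophage markers and 8 of 10 B cell and plasma cell markers were at their highest among the 4 control libraries, and 25 of 25 cholesterol synthesis genes were at their lowest. Each main result is therefore also given without it. The hepatocyte markers, 8 genes including albumin, summed to between 83745 and 87989 CPM in the control refed and between 89233 and 112980 in the low isoleucine refed libraries, and none of them was at 0 in all 8. In whole liver, fewer cells of a type and less RNA per cell cannot be told apart.

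Few genes differed between the diets in refed liver. At an adjusted p under 0.05, the edgeR quasi-likelihood test with Benjamini-Hochberg adjustment over all genes, 26 of the 14920 genes passed (0.174%). Of these, 9 were higher on the low isoleucine diet (0.0603% of the genes tested) and 17 were lower (0.114%). Of the 26, 19 had an absolute log2 fold change above 1, and in 26 of 26 every library of one diet lay above every library of the other. Selection by p in this same contrast favours large and separated differences, so both counts only describe the 26. Among all genes tested, libraries were separated in that way for 328 genes higher on low isoleucine (2.2%) and 334 lower (2.24%). An unadjusted p under 0.05 was reached by 1456 genes (9.76%), 590 of them higher (3.95%) and 866 lower (5.8%). The median log2 fold change of all genes was -0.01. Without control refed library 4, 89 genes passed, 22 higher and 67 lower, and the 26 were among them. The count was 17 without control refed library 3 and 3, 6 and 9 without low isoleucine refed libraries 1, 2 and 4. It was 3 in a fit of the 8 refed libraries alone, and DESeq2 called 176 of 15809 (1.11%), 63 higher (0.399%) and 113 lower (0.715%). Rdh16f2 and Vldlr passed in all 20 of the other settings tried.

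**Figure D1:**
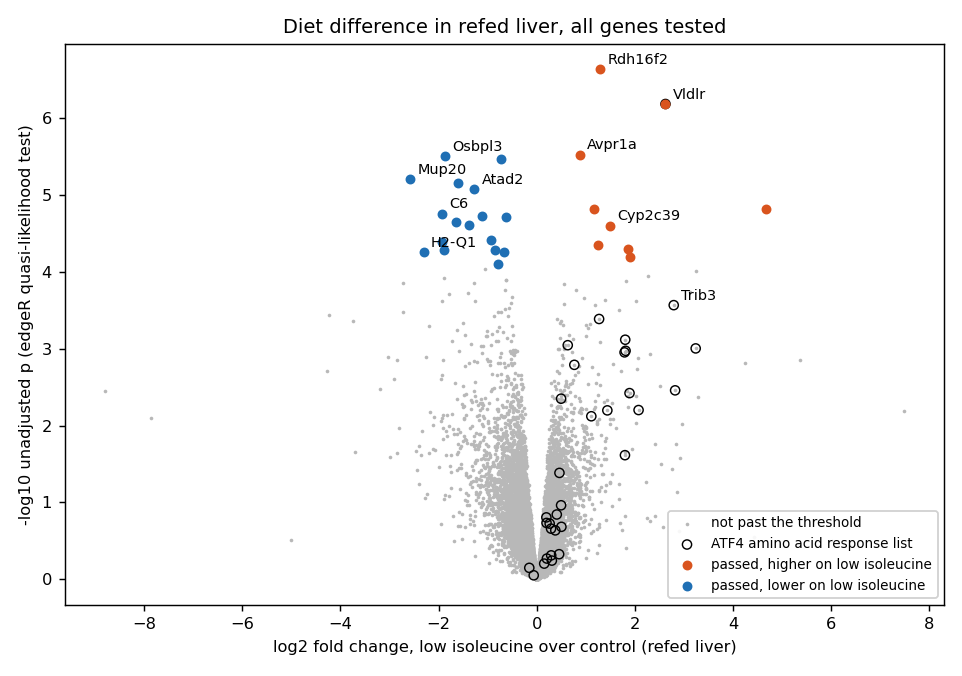
Log2 fold change of low isoleucine over control in refed liver (horizontal axis) against the -log10 unadjusted p of the edgeR quasi-likelihood test (vertical axis), 1 point per gene for the 14920 genes tested. The 9 genes that passed and were higher are orange, the 17 that were lower are blue, and open circles mark the 32 tested genes of the ATF4 amino acid response, 30 of which lie to the right of 0.

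The authors' deposited table for the same comparison lists 14211 genes and 39 with a Benjamini-Hochberg adjusted p under 0.05 (0.274%), 16 higher and 23 lower. The authors' deposited table and the fit used here shared 25 genes, 96.2% of the 26 and 64.1% of the 39. For the 26 genes the log2 fold change in the authors' deposited table differed from the one given here by at most 0.02. Oas2 was the 1 gene of the 26 not called there, with an adjusted p of 0.0670 in the authors' deposited table.

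**Figure D2:**
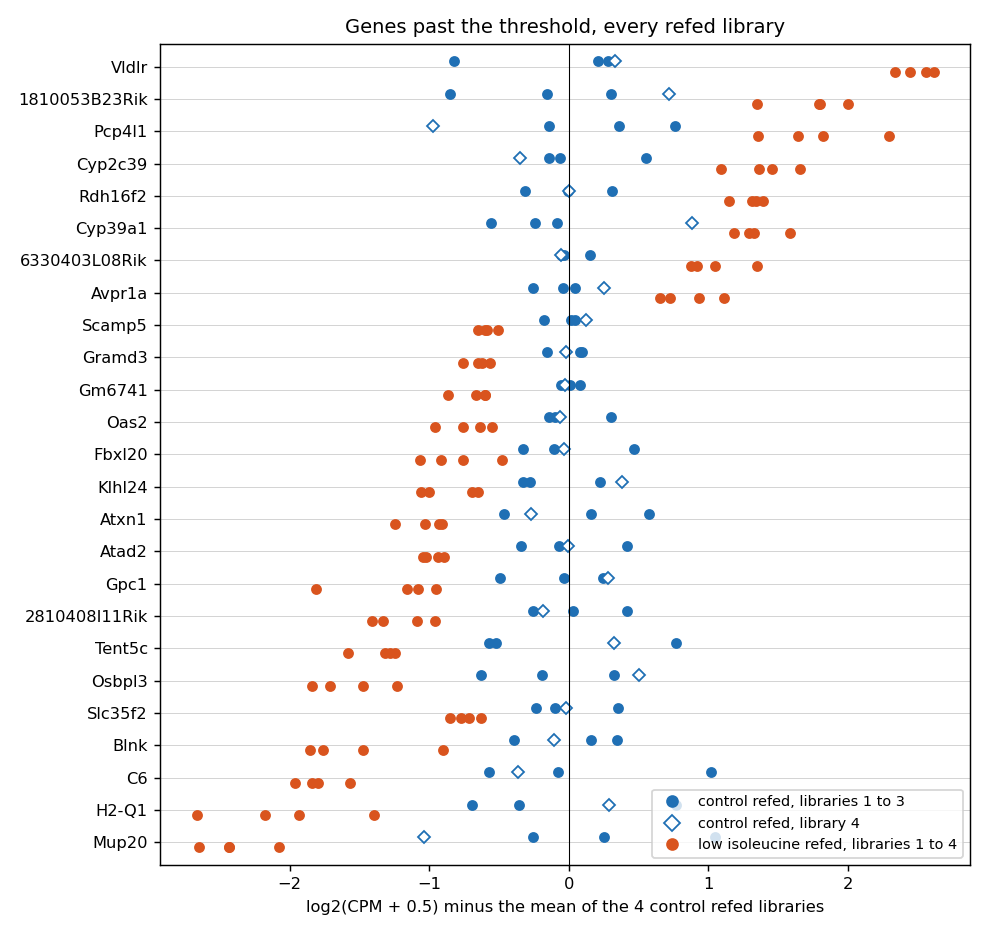
25 of the 26 genes that passed, 1 row each. The horizontal axis is log2(CPM + 0.5) minus the mean of the 4 control refed libraries, with control libraries 1 to 3 as filled blue circles, control library 4 as an open blue diamond and the 4 low isoleucine libraries in orange. In every row the orange and the blue points are apart, and for Vldlr the 4 low isoleucine libraries lie close together.

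Vldlr, the receptor for very low density lipoprotein, was the 1 gene of the amino acid response list that rose. It stood at 3.06, 2.89, 1.16 and 3.18 CPM in control refed libraries 1 to 4 and at 16.7, 17.4, 14.3 and 15.4 CPM in the low isoleucine refed libraries. The lowest low isoleucine library was thus far above the highest control, and the low isoleucine libraries were near one another. The log2 fold change was 2.62 (SE 0.335, adjusted p = 0.00487), or 2.73 without control refed library 4. Vldlr (ENSMUSG00000024924) is a protein-coding gene at chr19:27216484-27254231 on the plus strand in the GENCODE M21 annotation. ATF4 pairs with C/EBP family proteins on a composite DNA element whose core is often written TGATGNAA, where N is any base. That core, or its reverse complement, was searched in RefSeq promoter windows of build GRCm38.p6, from 250 bases before to 50 bases after each gene's start. It was found for 4.51% of the 27025 genes in that table, for 2.93% of the 10736 tested genes that have a window and for 10 of the 31 genes of the ATF4 amino acid response that have a window (32.26%). Of the 14 passing genes that have a window, Vldlr held it and the other 13 did not. Vldlr had 2 windows, and the first that held the core is shown. Its 250 bases before the start, chr19:27216770-27217019 on the plus strand, are given 5′ to 3′. The match is in capitals and begins 200 bases before that start, inside the GENCODE M21 span of the gene.
Vldlr promoter: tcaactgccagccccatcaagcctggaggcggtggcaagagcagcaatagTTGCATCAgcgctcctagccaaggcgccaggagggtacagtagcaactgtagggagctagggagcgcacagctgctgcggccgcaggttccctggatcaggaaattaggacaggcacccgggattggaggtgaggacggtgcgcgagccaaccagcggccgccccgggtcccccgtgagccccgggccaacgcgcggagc
Shorter stretches with the same element are shown for genes of the list whose levels are described next, each on the strand of its gene: Atf3 at chr1:191183420-191183459 (minus), Chac1 at chr2:119351033-119351072 (plus) and Fgf21 at chr7:45615606-45615645 (minus). A match describes these letters and shows neither binding nor use.
Atf3 promoter: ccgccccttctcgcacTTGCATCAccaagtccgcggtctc
Chac1 promoter: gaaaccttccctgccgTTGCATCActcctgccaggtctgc
Fgf21 promoter: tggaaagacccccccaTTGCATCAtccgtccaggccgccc

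The ATF4 amino acid response had mostly positive values, unevenly among the low isoleucine livers. Of its 35 genes 32 were tested: Vldlr rose, 31 did not pass, 30 of 32 had a positive log2 fold change, and 17 had an unadjusted p under 0.05 against 9.76% of all genes. The list's median log2 fold change was 0.50 against -0.01 for all genes. Leaving out control refed library 4 gave 0.81 and leaving out low isoleucine refed library 4 gave 0.34. Vldlr was placed on the list with its result known. DESeq2 called 11 members higher (0.399% of all genes), among them Trib3, Atf3, Chac1 and Fgf21, and limma-voom called 1.

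All 7 transcription factors of the list had positive values, and 0 passed. Atf3, which represses and fine-tunes stress genes, was at 3.46, 4.30, 4.75 and 5.23 CPM in the control and 11.8, 18.4, 3.17 and 28.7 CPM in the low isoleucine libraries (log2 fold change 1.80, adjusted p = 0.129). Low isoleucine libraries 1, 2 and 4 lay above all controls and library 3 lay below them. Atf4 itself was at 105 ± 9.54 CPM in the controls and 163 ± 41.8 CPM on low isoleucine (log2 fold change 0.63, adjusted p = 0.138) and Atf5, a relative of ATF4, at 188 ± 20.01 and 319.9 ± 119 CPM (0.77, adjusted p = 0.164). Ddit3, which encodes the stress factor CHOP, was at 12.4, 7.39, 17.2 and 9.28 CPM in the controls and 14.9, 36.4, 14.0 and 34.5 CPM on low isoleucine, so that libraries 2 and 4 were above the controls and libraries 1 and 3 among them (adjusted p = 0.311).

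The 6 feedback regulators had positive values with a median of 1.80, and 0 passed. Trib3, a pseudokinase that dampens ATF4, was at 3.499, 3.46, 2.91 and 6.28 CPM in the controls and 13.3, 32.3, 4.01 and 63.4 CPM on low isoleucine (log2 fold change 2.79, adjusted p = 0.0795). Chac1, which breaks down glutathione, was at 2.86, 0.873, 0.359 and 1.34 CPM and 4.67, 16.3, 0.987 and 29.2 CPM (3.24, adjusted p = 0.145). In both genes libraries 2 and 4 were high and library 3 was inside the control range. Sesn2, a leucine sensor that restrains mTORC1, was at 5.39, 3.69, 2.00 and 4.99 CPM and 9.46, 18.4, 3.44 and 24.4 CPM (1.79, adjusted p = 0.146). Ddit4, another inhibitor of mTORC1, was at 2.86, 2.55, 2.95 and 3.77 CPM and 5.61, 22.0, 4.61 and 10.6 CPM, with the diets apart in all 8 libraries (1.81, adjusted p = 0.146).

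Among the secreted factors Fgf21, the fasting and amino acid hormone of the liver, was at 14.0, 2.52, 2.24 and 5.73 CPM in the controls and 13.2, 97.4, 5.03 and 56.4 CPM on low isoleucine. Only low isoleucine libraries 2 and 4 exceeded the highest control, library 1 (log2 fold change 2.82, adjusted p = 0.240). Gdf15, a stress hormone that curbs appetite, was scarce, at 0.344 ± 0.259 and 1.26 ± 0.8290 CPM (1.80, adjusted p = 0.430). Of the enzymes of amino acid and one-carbon synthesis, 10 of 12 were tested and 0 passed, with a median of 0.42. Psat1, of serine synthesis, was at 1.25, 0.773, 2.51 and 4.39 CPM and 8.13, 7.10, 1.59 and 21.4 CPM (2.08, adjusted p = 0.290), and Mthfd2, of mitochondrial one-carbon metabolism, at 2.32 ± 1.09 and 8.62 ± 8.59 CPM (1.89, adjusted p = 0.250). Phgdh, the first enzyme of serine synthesis, was among the genes with too few counts to be tested. Asns, asparagine synthetase and a textbook ATF4 target, was at 1.25, 6.18, 8.30 and 23.1 CPM in the controls and 8.28, 12.2, 8.89 and 24.5 CPM on low isoleucine, and the groups overlapped (adjusted p = 0.860). Control library 4 held the highest control value of Asns, and the log2 fold change went from 0.46 to 1.34 without it.

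The amino acid transporters of the list had a median of 0.50 over 5 tested genes. Slc7a5, the light chain of the large neutral amino acid transporter that carries isoleucine, was at 2.25, 1.88, 2.95 and 2.73 CPM in the controls and 3.70, 5.02, 4.46 and 10.5 CPM on low isoleucine. The diets were apart in all 8 libraries (1.27, adjusted p = 0.0986). Its partner Slc3a2 was at 31.2 ± 1.06 and 44.0 ± 10.96 CPM (0.50, adjusted p = 0.265). Slc7a1, a cationic amino acid transporter, passed without control refed library 4, where its log2 fold change was 2.21 against 1.44 with all libraries; it was singled out after that value was seen.

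The low isoleucine livers were spread out across the list. Within the low isoleucine group, library 3 held the lowest value for 27 of the 32 genes and library 4 the highest for 24. Set against the mean of the 4 controls, the median of the list was 0.42 in low isoleucine library 1, 0.87 in library 2, -0.02 in library 3 and 1.28 in library 4, in log2 units. The controls stood at -0.06, -0.12, -0.16 and 0.24 on the same scale. In these levels library 3 was inside the range of the controls, whereas its Vldlr level, 14.3 CPM, was far above the highest control, 3.18 CPM.

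**Figure D3:**
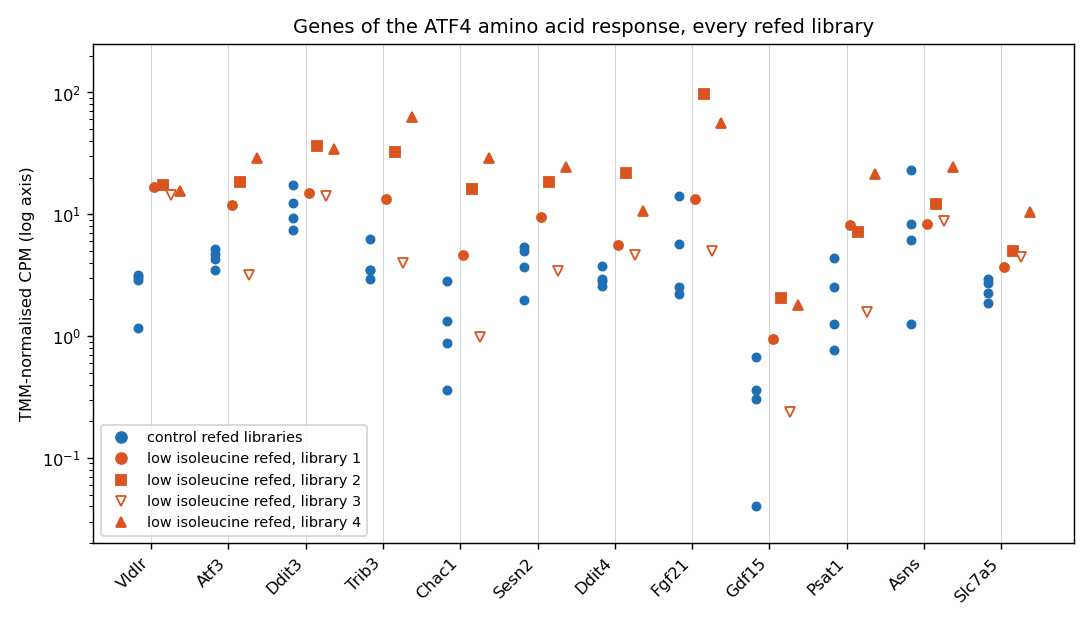
TMM-normalised CPM on a log axis for 12 genes of the ATF4 amino acid response in every refed library. Blue circles are the 4 control libraries and orange symbols the low isoleucine libraries, with library 3 as an open triangle. Library 3 is the lowest orange point for most genes and is level with the others for Vldlr.

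Genes that degrade amino acids did not pass. Of 24 tested genes of branched-chain amino acid catabolism 0 passed and 4 had an unadjusted p under 0.05 (9.76% of all genes). The median was 0.00. Bcat2, which starts the breakdown by transamination, stood at 25.1 ± 4.61 CPM in the controls and 33.0 ± 4.09 CPM on low isoleucine (log2 fold change of 0.40, adjusted p = 0.295). Bckdk, the kinase that switches off the branched-chain ketoacid dehydrogenase, was at 10.1 ± 2.49 and 12.4 ± 1.04 CPM (0.30, adjusted p = 0.573). Acadsb, the dehydrogenase of the isoleucine branch, was at 79.3, 85.5, 101 and 88.9 CPM in the controls and 69.4, 61.4, 75.5 and 53.7 CPM on low isoleucine, lower in every library (-0.45, adjusted p = 0.194). Hsd17b10, a later enzyme of isoleucine breakdown, was at 195 ± 37.6 and 248 ± 6.87 CPM, higher in every library (0.34, adjusted p = 0.436). Among 39 genes of other amino acid catabolism and the urea cycle 0 passed and the median was 0.18. Of these 28 were positive, and 6 were higher (3.95% of all genes) and 1 lower (5.8%) at an unadjusted p under 0.05. In 3 the libraries did not overlap, all higher (2.2% of all genes), and DESeq2 called Bhmt and Cdo1 (0.399% called higher). Bhmt, which remethylates homocysteine with betaine, was at 3458, 5922, 3189 and 4684 CPM in the controls and 9529.6, 6517, 10228 and 8227 CPM on low isoleucine, with no overlap (1.00, adjusted p = 0.107). Cdo1, which starts the oxidation of cysteine, was at 1148, 1164, 958 and 957 CPM and 1631, 1533, 1634 and 1402 CPM, again with no overlap (0.55, adjusted p = 0.0795). It has an adjusted p of 0.0475 in the authors' deposited table. Of 20 cytosolic aminoacyl-tRNA synthetases and 28 genes of GCN2 and mTORC1 sensing 0 passed, with medians of 0.11 and -0.04.

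Other genes among the 9 that rose have varied roles. Rdh16f2, a retinol and sterol dehydrogenase family member at chr10:127866474-127877317, had the smallest p of all genes. It was at 50.8, 63.3, 40.9 and 51.0 CPM in the controls and 135, 129, 113 and 127 CPM on low isoleucine, a 2.45-fold difference (log2 fold change 1.29, SE 0.155, adjusted p = 0.00346). The libraries of each diet were close together and the diets were well apart. Cyp39a1, which hydroxylates 24-hydroxycholesterol on the way to bile acids, was at 17.3, 24.3, 21.7 and 47.9 CPM in the controls and 78.2, 59.1, 65.5 and 63.7 CPM on low isoleucine (1.26, adjusted p = 0.0341). Control library 4 was the highest control for Cyp39a1, and without it the log2 fold change was 1.64. Cyp2c39, a cytochrome P450, was at 3.10, 5.005, 2.91 and 2.46 CPM and 9.16, 9.80, 11.4 and 7.49 CPM (1.49, adjusted p = 0.0234).

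Avpr1a, the hepatic vasopressin receptor, was at 11.7, 9.37, 10.9 and 13.6 CPM in the controls and 19.0, 25.0, 22.0 and 18.0 CPM on low isoleucine (log2 fold change 0.88, adjusted p = 0.0100). Pcp4l1, a relative of the calmodulin-binding protein PEP-19, rose from 3.03 ± 1.63 to 10.9 ± 3.23 CPM (1.86, adjusted p = 0.0341). Also higher were 6330403L08Rik, annotated as antisense (1.17), and 1810053B23Rik, a processed transcript (1.91). The strand setting of the counting is not given in the sources used here, so reads of the antisense gene and of its partner cannot be told apart. Rdh16f2, Cyp2c39 and several genes below (Mup20, H2-Q1, Serpina1e, Cyp4a12a, Selenbp2 and Ugt2b38) have near-identical copies among which the counting may have split reads, so their levels are uncertain. In the lists that hold Cyp39a1, Cyp2c39, Rdh16f2 and Avpr1a, 1 member each rose (0.0603% of all genes) and 0 fell. These lists held 24 bile acid, 43 cytochrome P450, 20 retinoid and 16 hormone receptor genes that were tested. Their medians were 0.16, 0.19, 0.07 and 0.04, in that order. An unadjusted p under 0.05 was reached by 16.7%, 14.0%, 15% and 31.25% of their members, against 9.76% of all genes. Cyp7a1, the rate-limiting enzyme of bile acid synthesis, was at 293 ± 81.8 and 392 ± 188 CPM (adjusted p = 0.762). Nr1h4, the bile acid receptor FXR, was at 177 ± 14.2 and 229 ± 16.7 CPM, higher in every library (0.38, adjusted p = 0.331).

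Genes known to be higher in male than in female mouse liver had negative values on the low isoleucine diet. All 19 tested members of that list had a negative log2 fold change, 2 fell, 17 did not pass, 11 had an unadjusted p under 0.05 (lower in 5.8% of all genes), 7 had libraries that did not overlap (lower in 2.24%), and DESeq2 called 9 lower (0.715%). The median was -1.62. Leaving out control refed library 4 made it -1.86, and leaving out control refed library 3 made it -0.87. Mup20, a male pheromone protein at chr4:62050234-62054158, was at 8222, 5774, 14304 and 3368 CPM in the controls and 1280.4, 1099, 1641 and 1278 CPM on low isoleucine. The 4 low isoleucine libraries were close together while the controls spanned a wide range, from library 4 at the bottom to library 3 at the top (-2.58, SE 0.387, adjusted p = 0.0148). C6, a complement component of the same list, is described below. Serpina1e, an alpha-1-antitrypsin gene, was at 3604, 1955, 9766 and 5588 CPM in the controls and 537, 1268, 1568 and 1224 CPM on low isoleucine (-2.19, adjusted p = 0.107). Cyp4a12a, an arachidonic acid omega-hydroxylase, was at 529, 255, 619.5 and 124 CPM and 147, 96.5, 87.0 and 69.2 CPM, and control library 4 was below low isoleucine library 1 (-1.94, adjusted p = 0.0768, and 0.00877 without control refed library 4). Leaving out that library, the only control that overlapped, favours a smaller p, so the value without it is a description. Selenbp2, a selenium-binding protein, was at 41.8, 132, 402 and 35.8 CPM in the controls and 23.8, 12.1, 19.0 and 30.1 CPM on low isoleucine, and Ugt2b38, a glucuronosyltransferase, at 3.54, 1.81, 34.2 and 4.37 CPM and 0.176, 0.279, 0.928 and 0.861 CPM, in both cases with no overlap.

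Genes known to be higher in females mostly had values of the other sign. Of 20 listed 14 were tested, 1 rose (0.0603% of all genes), 13 did not pass and 10 were positive. At an unadjusted p under 0.05, 5 were higher (3.95% of all genes) and 0 lower. In 4 the libraries did not overlap, all higher (2.2%), and DESeq2 called 3 higher (0.399%). The median was 0.54. That median became 0.24 when control refed library 1 was left out and 1.43 when control refed library 2 was. Cyp2b9, a female-biased P450, was at 0.804, 28.3, 0.399 and 2.46 CPM in the controls and 133, 165, 193 and 115 CPM on low isoleucine (4.23, adjusted p = 0.162). The diets did not overlap, but control library 2 was far above the other 3 controls. Sult3a1, a sulfotransferase of the same list, was at 0, 0.235, 0 and 0.0744 CPM and 0.617, 0.899, 0.868 and 0.889 CPM, so that libraries 1 and 3 of the controls had no count (3.25, adjusted p = 0.0523). Cyp17a1, a steroid hydroxylase, was at 20.7, 148, 20.5 and 102 CPM and 218, 189.8, 164 and 187 CPM, with no overlap (1.38, adjusted p = 0.397).

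Major urinary protein transcripts, 21 of 22 tested, had a median of -1.20. Mup20 fell and 20 did not pass, and 19 were negative. At an unadjusted p under 0.05, 9 were lower (5.8% of all genes) and 1 higher (3.95%). Without control refed library 4, which held the lowest control value for 21 of 21, the median was -1.62, and without control refed library 3 it was -0.67. The family took 8.49% ± 4.57 of all counts in the control refed and 4.996% ± 1.498 in the low isoleucine refed livers (SD, n = 4 each). By library the shares were 7.67%, 9.64%, 13.8% and 2.81% in the controls and 3.54%, 4.26%, 7.00% and 5.18% on low isoleucine. The groups overlapped through control library 4 alone (two-sided exact permutation test, p = 0.229, with 0.0286 the smallest p that 4 against 4 allows). Without that library the difference was -5.38 percentage points, given with no test because leaving out the 1 overlapping library fixes its outcome. Ghr, the growth hormone receptor, had a log2 fold change of -0.40 (adjusted p = 0.491), Igf1 one of -0.33 (0.556) and Socs2, a feedback inhibitor, one of -0.47 (0.804). Of the 14 genes of the growth hormone and IGF1 axis 0 passed.

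Complement genes had mostly negative values, those of the membrane attack complex among them. Of 6 terminal components 1 fell and 5 did not pass, but 6 were negative and 5 had an unadjusted p under 0.05, with a median of -0.71. The other 16 complement genes had a median of -0.13, 0 passed, and 2 had an unadjusted p under 0.05, against 5.8% of all genes for lower values. C4a, a copy of the early component C4 that is not on that list and has a near-identical partner, was at 20.2, 12.7, 21.5 and 7.89 CPM in the controls and 7.05, 4.62, 4.67 and 7.23 CPM on low isoleucine. Its libraries did not overlap (-1.40, adjusted p = 0.0698, and 0.00971 without control refed library 4). C6, which joins the complex after C5b, was at 208, 147, 444 and 169.9 CPM in the controls and 56.0, 62.6, 73.6 and 60.8 CPM on low isoleucine (-1.94, SE 0.318, adjusted p = 0.0222). C9, which forms the pore, was at 345, 257, 499 and 331 CPM and 110.3, 142, 246 and 99.5 CPM, again with no overlap (-1.26, adjusted p = 0.0768). C8a was at 561, 502, 684 and 354 CPM and 239.8, 265, 396 and 294 CPM, with control library 4 below low isoleucine library 3 (-0.81, adjusted p = 0.117), and Hc, which encodes C5, was at 717 ± 99.4 and 543 ± 90.1 CPM (-0.40, adjusted p = 0.311). C6 and C8a were also counted on the male-biased list. Of 19 coagulation factors 0 passed and 0 had an unadjusted p under 0.05, and their median was 0.07. Of 22 acute phase proteins 0 passed. At an unadjusted p under 0.05, 5 were higher (3.95% of all genes) and 3 lower (5.8%), and DESeq2 called 3 (1.11%). Orm3, an orosomucoid, was at 0.161, 0.672, 0.279 and 0.347 CPM in the controls and 1.06, 2.36, 2.63 and 1.18 CPM on low isoleucine (2.27, adjusted p = 0.0582). Apcs, serum amyloid P, was at 73.0, 92.4, 103 and 92.1 CPM and 177, 131, 125 and 164 CPM (0.73, adjusted p = 0.146), and Steap4, a metalloreductase, at 93.7, 137, 110.0 and 95.3 CPM and 62.7, 71.9, 71.8 and 45.6 CPM (-0.79, adjusted p = 0.0877). In these 3 genes the diets did not overlap, and the median of the list was -0.06.

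Genes of the cell cycle and of DNA replication had mostly negative values on low isoleucine. Of 43 listed genes 36 were tested: 1 fell, 35 did not pass, 31 were negative, 15 were lower (5.8% of all genes) and 0 higher at an unadjusted p under 0.05, and 10 had libraries that did not overlap, all lower (2.24% of all genes). The median was -0.47 and stayed between -0.51 and -0.40 when any one refed library was left out. Summed over the 43 genes the level was 178 to 224 CPM in the control refed and 143 to 147 CPM in the low isoleucine refed libraries. DESeq2 called 5 members lower (0.715% of all genes). By role the medians were -0.28 for 23 replication genes, -1.02 for 7 mitosis genes and -0.98 for 6 regulators. Atad2, a chromatin ATPase that works with E2F and MYC, was at 2.61, 2.08, 3.87 and 2.75 CPM in the controls and 1.09, 1.21, 1.11 and 1.26 CPM on low isoleucine (-1.27, adjusted p = 0.0156). E2f1, the factor that opens the S phase programme, was at 1.17, 1.34, 0.719 and 0.893 CPM and 0.352, 0.496, 0.389 and 0.459 CPM (-1.27, adjusted p = 0.0599, and 0.0320 without control refed library 4). Ccnd1, cyclin D1 of the G1 phase, was at 29.9, 34.7, 28.8 and 60.6 CPM and 11.6, 20.6, 19.0 and 18.7 CPM (-1.14, adjusted p = 0.138), and Ccne1, cyclin E1, at 1.27 ± 0.490 and 0.461 ± 0.123 CPM (-1.47, adjusted p = 0.122). In all 4 the diets were apart in every library. The helicase subunits Mcm4, Mcm5 and Mcm6 had log2 fold changes of -0.75, -0.81 and -0.94 and no overlap, with adjusted p = 0.154, 0.197 and 0.242.

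E2F sites are known control elements of many replication genes. The forms TTTGGCGC and TTTCCCGC, on either strand, were found in the RefSeq windows of 8 of the 33 listed genes that have one (24.24%). They were found for 1.8% of all 27025 genes and 3.23% of the 10736 tested genes with a window. Of the 14 passing genes with a window 0 held a form. Of the 6 listed genes with a window whose libraries did not overlap, 2 held one, Mcm5 and Mcm6. Cdc6 is shown for the form TTTCCCGC, and its level is not reported here. A match describes the letters and shows neither binding nor use. The stretches before the starts of Mcm5 (chr8:75109344-75109383, plus strand), Mcm6 (chr1:128359792-128359831, minus strand) and Cdc6 (chr11:98907997-98908036, plus strand), in build GRCm38.p6, show the forms as they occur, in capitals and 5′ to 3′ on the strand of the gene.
Mcm5 promoter: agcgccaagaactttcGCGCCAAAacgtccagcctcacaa
Mcm6 promoter: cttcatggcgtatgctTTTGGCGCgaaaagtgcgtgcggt
Cdc6 promoter: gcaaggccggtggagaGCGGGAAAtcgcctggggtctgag

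Other genes that fell act in immune cells or in the response to viruses. Oas2, an interferon-induced synthetase of antiviral oligoadenylates, was at 6.88, 9.57, 7.11 and 7.32 CPM in the controls and 3.70, 4.31, 5.06 and 4.73 CPM on low isoleucine (-0.79, adjusted p = 0.0449). Of 30 interferon-stimulated genes Oas2 fell (0.114% of all genes), 29 did not pass, 23 were negative and 7 positive (47.6% of all genes positive). At an unadjusted p under 0.05, 10 were lower (5.8% of all genes) and 0 higher. In 3 the libraries did not overlap, all lower (2.24%). The median was -0.37, or -0.21 without control refed library 2, the control with the highest value for 19 of the 30. H2-Q1, a class I histocompatibility gene, was at 8.12, 18.2, 6.31 and 12.9 CPM and 1.94, 1.24, 3.68 and 2.38 CPM (-2.30, adjusted p = 0.0341). It was the 1 of 25 antigen presentation genes that passed (0.174% of all genes), and the median of that list was -0.08.

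Blnk, an adaptor of B cell receptor signalling, was at 2.33, 3.66, 4.23 and 2.95 CPM in the controls and 0.529, 0.837, 0.598 and 1.49 CPM on low isoleucine (-1.92, adjusted p = 0.0336). Tent5c, a poly(A) polymerase known from plasma cells, was at 4.505, 4.33, 11.7 and 8.46 CPM and 2.38, 1.89, 2.45 and 2.52 CPM (-1.65, adjusted p = 0.0234). Both were placed on the list of B cell and plasma cell markers, 12 genes of which 10 were tested. Of these 2 fell, Blnk and Tent5c (0.114% of all genes), and 8 did not pass. All 10 were negative, where 47.6% of all genes were positive. In control refed library 3 Blnk and Tent5c had their highest control values, whereas 8 of the 10 tested markers had their lowest there. The list's summed level was 17.7, 17.8, 22.0 and 55.1 CPM in control refed libraries 1 to 4 and 9.75 to 11.5 CPM in the low isoleucine refed libraries. That sum includes Blnk and Tent5c at the levels given above, so it does not describe the other markers apart from these 2 genes. None of the markers was at 0 in all 8. The list's median of -1.39 became -0.32 without control refed library 4, in which Jchain, the joining chain of secreted antibodies, was at 3.23 CPM against 0.519 to 0.605 in the other controls. Blnk and Tent5c did not share that dependence, at -1.99 and -1.58 without the library. The Kupffer cell and macrophage markers summed to 282 to 543 CPM in the control refed and 223 to 397 CPM in the low isoleucine refed libraries, and 0 of 13 passed. Their median was -0.45, or -0.24 without control refed library 4, and what part these cells have in the immune genes above was not tested.

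The remaining genes that fell have varied roles. Osbpl3, a lipid transfer protein at membrane contacts, was at 7.80, 5.31, 3.79 and 8.91 CPM in the controls and 1.35, 1.89, 1.53 and 2.32 CPM on low isoleucine (-1.87, adjusted p = 0.0100). Gpc1, a heparan sulfate proteoglycan of the cell surface, was at 7.96, 9.81, 5.67 and 10.1 CPM and 3.61, 3.999, 1.97 and 3.39 CPM (-1.37, adjusted p = 0.0234). Atxn1, a nuclear protein that partners transcriptional repressors, was at 13.4, 20.9, 28.1 and 15.4 CPM and 9.69, 7.59, 9.55 and 8.87 CPM (-1.12, adjusted p = 0.0222). Klhl24 and Fbxl20 are substrate adaptors of ubiquitin ligases. Klhl24 fell from 12.4 ± 3.18 to 6.55 ± 1.02 CPM and Fbxl20 from 17.2 ± 4.36 to 9.52 ± 1.79 CPM, and their adjusted p values were 0.0336 and 0.0341. Scamp5, of secretory vesicles, fell from 11.5 ± 1.03 to 7.501 ± 0.325 CPM, Gramd3, a GRAM domain protein, from 30.6 ± 2.44 to 19.3 ± 1.13 CPM, and Slc35f2, a solute carrier, from 0.623 ± 0.206 to 0.164 ± 0.0431 CPM. The processed pseudogene Gm6741 (-0.72) and the processed transcript 2810408I11Rik (-1.61) complete the 17, and reads of a pseudogene may stem from its parent gene.

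Lipid synthesis genes did not pass with all libraries. Of 24 genes of lipogenesis 0 passed, 17 were negative and 5 had an unadjusted p under 0.05, all lower (5.8% of all genes). The median of these 24 was -0.10. Scd1, the desaturase that makes oleate, was at 2165, 5272, 2536 and 573 CPM in the controls and 334, 952, 568 and 343 CPM on low isoleucine. Control library 4 lay among the low isoleucine libraries, and the adjusted p was 0.154 with it and 0.0254 without it (log2 fold change -2.26 and -2.61). Fads2, the delta-6 desaturase, was at 381, 591, 389 and 317 CPM and 232, 319, 204 and 233 CPM (-0.77, adjusted p = 0.109, and 0.0251 without control refed library 4). For Scd1 and Fads2 control library 4 was the only control that overlapped the low isoleucine libraries. Leaving it out favours a smaller p, so the values without it only describe these genes. Fasn, fatty acid synthase, was at 545, 348, 419.9 and 62.2 CPM and 390.1, 387, 203 and 265 CPM, and Srebf1, which drives the pathway, at 112, 82.0, 66.2 and 31.7 CPM and 99.7, 57.0, 42.7 and 59.4 CPM, with adjusted p = 0.946 and 0.915. For both genes control library 4 was the lowest of the 8. Of the 25 cholesterol synthesis genes 0 passed, and their median went from 0.20 to -0.07 when control refed library 4 was left out.

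Genes of glucose handling did not pass. Pck1 and G6pc, of glucose output, had log2 fold changes of -0.08 and -0.26 (adjusted p = 0.970 and 0.889). Igfbp1, an insulin-repressed gene that ATF4 also induces, was at 4.71, 4.03, 0.998 and 10.7 CPM and 9.48, 79.0, 7.48 and 107 CPM (3.28, adjusted p = 0.259). Its low isoleucine libraries 2 and 4 were high and libraries 1 and 3 were within the controls, the libraries that were high and low for Fgf21. Igfbp2 was at 261 ± 83.9 and 494 ± 233 CPM (0.92, adjusted p = 0.420). Gys2, liver glycogen synthase, was at 281, 305, 374 and 363 CPM and 168, 266, 211 and 264 CPM, lower in every library (-0.54, adjusted p = 0.350). Of the lists, 0 of 20 glycolysis and glycogen genes, 0 of 14 gluconeogenesis and FOXO1 target genes and 0 of 28 fatty acid oxidation genes passed.

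All 79 ribosomal protein genes had positive values, from 0.14 to 0.96 with a median of 0.33, and 0 passed. An unadjusted p under 0.05 was reached by 32, all higher (3.95% of all genes), and DESeq2 called 0 of the 79. In 16 the diets did not overlap (against 2.2% of all genes). Rpl4 was at 478, 447, 523 and 501 CPM in the controls and 579, 579.9, 575 and 639.7 CPM on low isoleucine (0.28, adjusted p = 0.350). Low isoleucine library 4 held the highest value of its group for 77 of the 79 genes and library 3 the lowest for 65. Against the control mean the medians of the 4 low isoleucine libraries were 0.25, 0.27, 0.03 and 0.68 log2 units, and the order of libraries 3 and 4 was that of the ATF4 list. Without low isoleucine refed library 4 the list's median was 0.18. Endoplasmic reticulum chaperones (median -0.24) and heat shock proteins (-0.28) leaned the other way, with 18 of 21 and 17 of 20 negative and 0 passing in each. Without control refed library 3 these medians were 0.03 and -0.06.

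**Figure D4:**
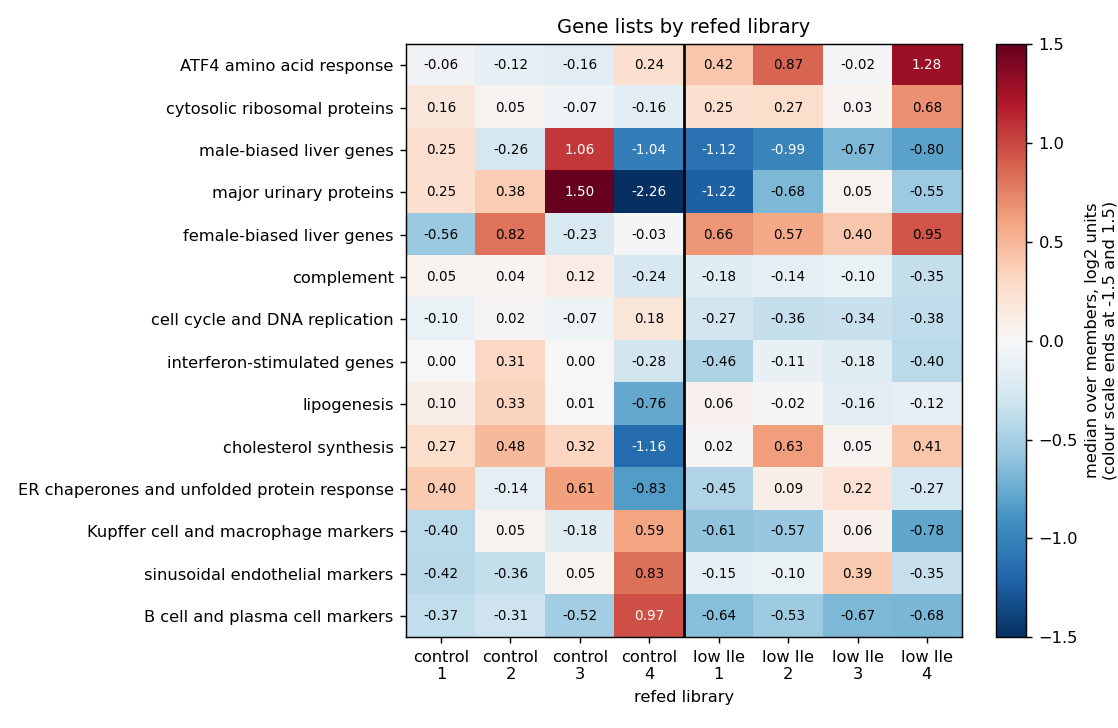
Each cell is the median over the tested members of a gene list, in log2 units, of a library's log2(CPM + 0.5) minus the mean of the 4 control refed libraries. Columns are the 8 refed libraries. The male-biased list is below 0 in all 4 low isoleucine libraries and also in control libraries 2 and 4, at -0.26 and -1.04. The ATF4 list is near 0 in low isoleucine library 3 and at 1.28 in library 4.

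Several single genes of iron handling, signalling and the clock did not pass, although their libraries did not overlap. Tfrc, the transferrin receptor that takes up iron, was at 28.2, 41.6, 27.5 and 25.9 CPM in the controls and 13.5, 10.3, 17.6 and 18.2 CPM on low isoleucine (-1.05, adjusted p = 0.0507, and 0.0251 without control refed library 4). Hamp2, a relative of the iron hormone hepcidin, was at 7.96, 16.5, 2.24 and 23.3 CPM and 35.2, 43.7, 31.9 and 30.3 CPM (1.48, adjusted p = 0.340). Alas2, the heme synthesis enzyme of red cell precursors, was at 79.2, 52.2, 85.5 and 64.7 CPM and 24.3, 34.1, 42.4 and 30.8 CPM (-1.10, adjusted p = 0.138), while the summed erythroid markers were at 207 to 293 CPM in the controls and 174 to 262 CPM on low isoleucine. Il6ra, the interleukin-6 receptor, was at 43.9, 59.5, 39.6 and 54.0 CPM and 33.4, 31.1, 35.2 and 27.0 CPM (-0.64, adjusted p = 0.0685). Among clock genes Nr1d1, which encodes the repressor REV-ERB alpha, was at 29.8, 19.3, 16.0 and 25.7 CPM and 46.1, 73.0, 37.0 and 36.0 CPM (1.08, adjusted p = 0.107). Cry1, a clock repressor that REV-ERB alpha controls, was lower in every library (-0.49, adjusted p = 0.423). Of the 15 genes next in order of p, from Tfrc to Mfsd2a, the adjusted p ran from 0.0507 to 0.0707. Mfsd2a, a carrier of lysophosphatidylcholine, was at 51.8, 59.7, 13.0 and 47.2 CPM in the controls and 10.7, 12.7, 14.0 and 12.4 CPM on low isoleucine (-1.78), and control library 3 was among the low isoleucine libraries.

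In the fasted libraries 21 of the 26 genes had the same sign, against 58.4% of all genes tested, and 10 passed, against 0.771%. The 26 were chosen by their refed difference, so their refed values are a description here. Vldlr (2.15 fasted, 2.62 refed), Mup20 (-2.56 and -2.58), and H2-Q1 (-2.19 and -2.30) had log2 fold changes of like size in both states. Cyp39a1 was at 1.75 fasted and 1.26 refed. Atad2 (0.11 fasted), Atxn1 (0.15), Tent5c (0.11) and Gm6741 (0.13), all lower in refed liver, were near 0 there. So was 6330403L08Rik (-0.03 fasted), which was higher in refed liver. The difference between the 2 diet effects passed for 0 of 14920 genes by edgeR (0% called), with 928 at an unadjusted p under 0.05 (6.22%) and 36 called by DESeq2. For Atad2, Atxn1 and Tent5c the difference was -1.38 (unadjusted p = 1.69e-04, adjusted p = 0.343), -1.27 (1.84e-04 and 0.343) and -1.76 (3.11e-04 and 0.351). For Gm6741 and 6330403L08Rik it was -0.85 (2.53e-05 and 0.285) and 1.20 (5.85e-04 and 0.351). Of the 26, 13 had an unadjusted p under 0.05 for the difference. Being chosen by their refed difference favours such a gap, so these values are a description too. The ATF4 list had a median of 0.11 in fasted liver against 0.50 in refed, and the cell cycle list -0.08 against -0.47. The male-biased list was at -1.48 against -1.62.

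**Figure D5:**
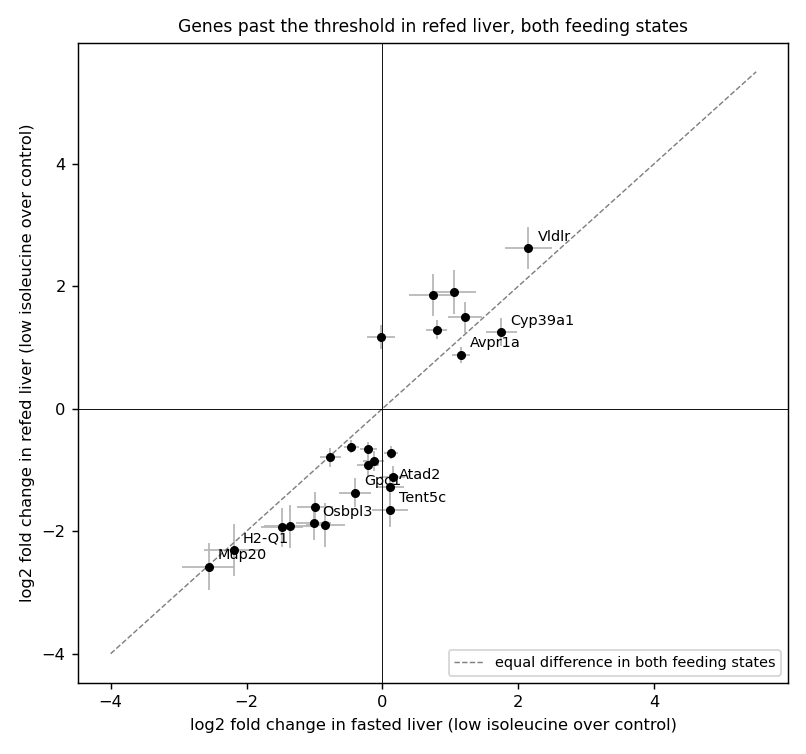
Log2 fold change of low isoleucine over control for 25 of the 26 genes that passed in refed liver, with fasted liver on the horizontal and refed liver on the vertical axis. Bars are standard errors of the edgeR fit and the dashed line marks equal differences. Vldlr and Mup20 lie near the line, and Atad2 and Tent5c lie below it with fasted values near 0.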

How the data were processed

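Liver RNA of 16 libraries was measured by the submitters, 4 for each diet and feeding state. The authors deposited a table of estimated (expected) counts per gene and tables of their own comparisons with log2 fold changes, F scores and p-values, per the file headers. R 3.5.3, limma and edgeR appear in the submitters' processing notes, which do not say what each was used for. Which aligner, genome build and annotation stand behind the counts is not given in the sources used here. Of the deposited expected counts 10.2% were not whole and were rounded. With R 4.3.3, edgeR 4.0.16 and limma 3.58.1, a quasi-likelihood model of the 4 groups was fitted, robustly, to all 16 libraries (12 residual degrees of freedom) after TMM scaling, on the genes that filterByExpr kept at a minimum count of 10 and a minimum total of 15. P-values were Benjamini-Hochberg adjusted over all 14920 genes, with 0.05 as the threshold. Library log2 values use a pseudocount of 0.5 CPM. Alternatives were other scalings, other filters, limma-voom, DESeq2 1.42.0, a block on the label marks, the refed libraries alone, unrounded values, and each refed library left out in turn. The fitting script was tested on simulated data. Gene identifiers had a symbol for 51633 of 51912, and GENCODE M21 gave positions for 14898 tested genes. Promoter windows came from RefSeq for 27025 genes (32851 windows). The 44 gene lists hold 929 genes, 3 of them not found in the table. The lists and the named genes were chosen with earlier results of these data known. Named were the genes that passed, the range of the next 15 by p, a short list of genes of amino acid, lipid and glucose metabolism, and from each list the 4 members of smallest p and members whose libraries did not overlap. Atf4, Atf5, Mthfd2, Slc3a2 and Slc7a1 were added after their values were seen. Adjusted p-values in the report are from edgeR unless another tool is named, and the interval a library's depth gives was not computed per gene. Some genes that the naming rule gives are not reported here by name.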

Additional observations from a re-analysis of the deposited data

Results flagged for a closer look

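In each refed group the highest and the lowest of the 4 libraries was set against its nearest neighbour, and a value was singled out where that gap was over 0.829 of the group's range, the Dixon limit for 4 values. Of 176 groups of values 12 were singled out, and chance gives about 1 in 20. Control refed library 2 was the highest control for Cyp2b9 (28.3 CPM), Tfrc (41.6 CPM), Oas2 (9.57 CPM) and 6330403L08Rik (3.56 CPM). Control refed library 3 was the highest control for Ugt2b38 (34.2 CPM) and Hc (866 CPM) and the lowest for Vldlr (1.16 CPM). Control refed library 4 was the highest control for Jchain (3.23 CPM). Among the low isoleucine refed libraries, library 3 was the highest for Cyp7a1 (672 CPM) and had the lowest TMM factor (0.989), library 4 was the highest for Rpl4 (639.7 CPM), and library 1 was the lowest for Sult3a1 (0.617 CPM).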

How the results depend on the processing

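The 26 genes that passed became 3 in a fit of the 8 refed libraries alone, which has fewer samples, and 176 with the DESeq2 Wald test. Leaving out 1 refed library gave 3 to 89 genes, with 17 without control refed library 3, 89 without control refed library 4, and 3, 6 and 9 without low isoleucine refed libraries 1, 2 and 4. The other scalings, filters and fits gave 19 to 28, and the cause of these changes was not tested. Each of the 26 had the same sign in every setting that tested it. Rdh16f2 and Vldlr passed in 20 of 20, Avpr1a in 19, while Cyp39a1 and Oas2 passed in 9 and 1810053B23Rik in 8. With the label marks as a replicate block 25 genes passed. Deviations of libraries that share a mark correlated at -0.02, 0.09, 0.37 and -0.23, so the marks were not taken to pair libraries, and 0 genes passed for the difference between feeding states with or without the block. DESeq2 called 36 for that difference. The difference in Mup share, -3.49 percentage points, ran from -5.38 to -1.71 over the left-out libraries and was -5.38 without control refed library 4. The mitochondrially encoded share was 7.06% ± 0.543 for the control diet and 7.52% ± 1.12 for low isoleucine (SD, n = 4 refed livers each), and its difference of 0.46 percentage points ran from -0.0686, without low isoleucine refed library 3, to 0.816. Genes that did not pass changed sign in some settings. Over the left-out libraries the log2 fold change of Pck1 ran from -0.49 to 0.0862, of Fasn from -0.51 to 0.172, of Srebf1 from -0.46 to 0.112, of G6pc from -0.54 to 0.0780 and of Asns from -0.0015 to 1.34. With limma-voom Fasn was at 0.161. At 24368656 to 33822517 counts per refed library, genes under the count filter were not tested.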
